A study of Drosophila melanogaster with 2 samples.

Results

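This account describes synaptic and neuronal genes of Drosophila melanogaster in embryos of 2 genotypes. A fixed list of 32 genes covered regulators found in all neurons, proteins of synaptic vesicles and of transmitter release, enzymes and transporters of transmitters, ion channels and receptors, adhesion and cytoskeletal proteins, and peptide processing. A gene was included where the platform annotation gave its symbol alone for a probe set. This held for 25 of the 32 genes, with 39 probe sets, out of 10843 genes with 12442 probe sets in all. The genes scrt, Syt1, Syx1A, Snap25, comt, VAChT and Fas2 were not analysed here.

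Total RNA came from yw embryos, a control strain mutant for yellow, a body colour gene, and for white, an eye colour gene, and from embryos homozygous for a mutation of mbf1. By the labels, both were kept on apple juice plates at 25 °C until 16 h after egg laying. Bright signals of adult genes on both arrays, given below, left that stage unsettled. The labels do not name the mbf1 allele, do not say what it removes, and do not say whether the mutants also carry yellow and white. Each genotype had 1 Affymetrix array, so there were 2 arrays, no replicates and no test, and every difference below is one between those arrays. The comparison addressed which transcripts depend on MBF1, a transcriptional coactivator that bridges DNA-binding factors and the TATA-binding protein.

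Neurons signal by firing action potentials through voltage-gated channels and by releasing transmitter from vesicles at the synapse. A vesicle fuses when its synaptobrevin pairs with partner proteins in the membrane at the active zone, and its membrane is then retrieved with the help of dynamin. In the fly, acetylcholine is the main excitatory transmitter of the central nervous system, glutamate acts at the neuromuscular junction, and GABA is inhibitory. The labels give whole embryos, so neurons contributed only part of the RNA. In such bulk RNA, fewer neurons and less RNA per neuron cannot be told apart.

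The deposited values were MAS5 signals, 1 per probe set and array on a linear scale. The mbf1 array was brighter, and the log2 ratios of mbf1 over yw were centred on the bulk of bright probe sets, which removed 0.55 on the log2 scale or 1.47-fold. Signals below are after this step, and without it a ratio between signals above the floor would be 0.55 higher. Values under a floor of 17.7, the 40th percentile of all signals, were raised to the floor before a ratio was taken. A gene was called measured when its brightest probe set exceeded the floor for yw, for mbf1 or for both. Probe sets differ in how well they bind, so a signal describes brightness and cannot be set against that of another gene as a transcript number. The mbf1 transcript had signals of 478.7 for yw and 22.1 for mbf1, a log2 ratio of -4.44.

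By its brightest probe set, no measured neuronal gene differed by 2-fold between the arrays. Of the 25, 10 were under the floor on both arrays and were not compared. The second probe set of 7B2 was 2.09-fold higher in mbf1. The measured genes were 15 of 25, or 60%, and 40% lay under the floor on both arrays, against 29.1% of all genes. Of the 15, 0 were at least 2-fold higher in mbf1, where 1.51% of all 7688 measured genes were, and 0 were at least 2-fold lower, where 1.63% were. With 15 genes these shares correspond to fewer than 1 gene, so a count of 0 does not set the neuronal genes apart. The ratios ran from -0.91 for the potassium channel gene Sh to 0.51 for the vesicle protein gene nSyb, with 8 positive and 7 negative.

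The median log2 ratio of the 15 genes was 0.13, beside 0.00 for all measured genes, but its sign did not hold. This median equals the ratio of jeb, a bound set by the floor. It was -0.11 over the 13 genes that exceeded the floor for yw and mbf1 alike. Relative to all genes it was 0.13 higher after centring, 0.14 higher after quantile normalization, 0.06 higher after loess, 0.02 lower with scaling on hybridization controls and 0.07 lower on the deposited values. The spread of the ratios, as a robust SD from the median absolute deviation, was 0.42 over the 15 genes and 0.37 over all measured genes. Of the 15, 9 ratios were within 0.25 of 0, as were 49.8% of those of all genes.

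**Figure D1:**
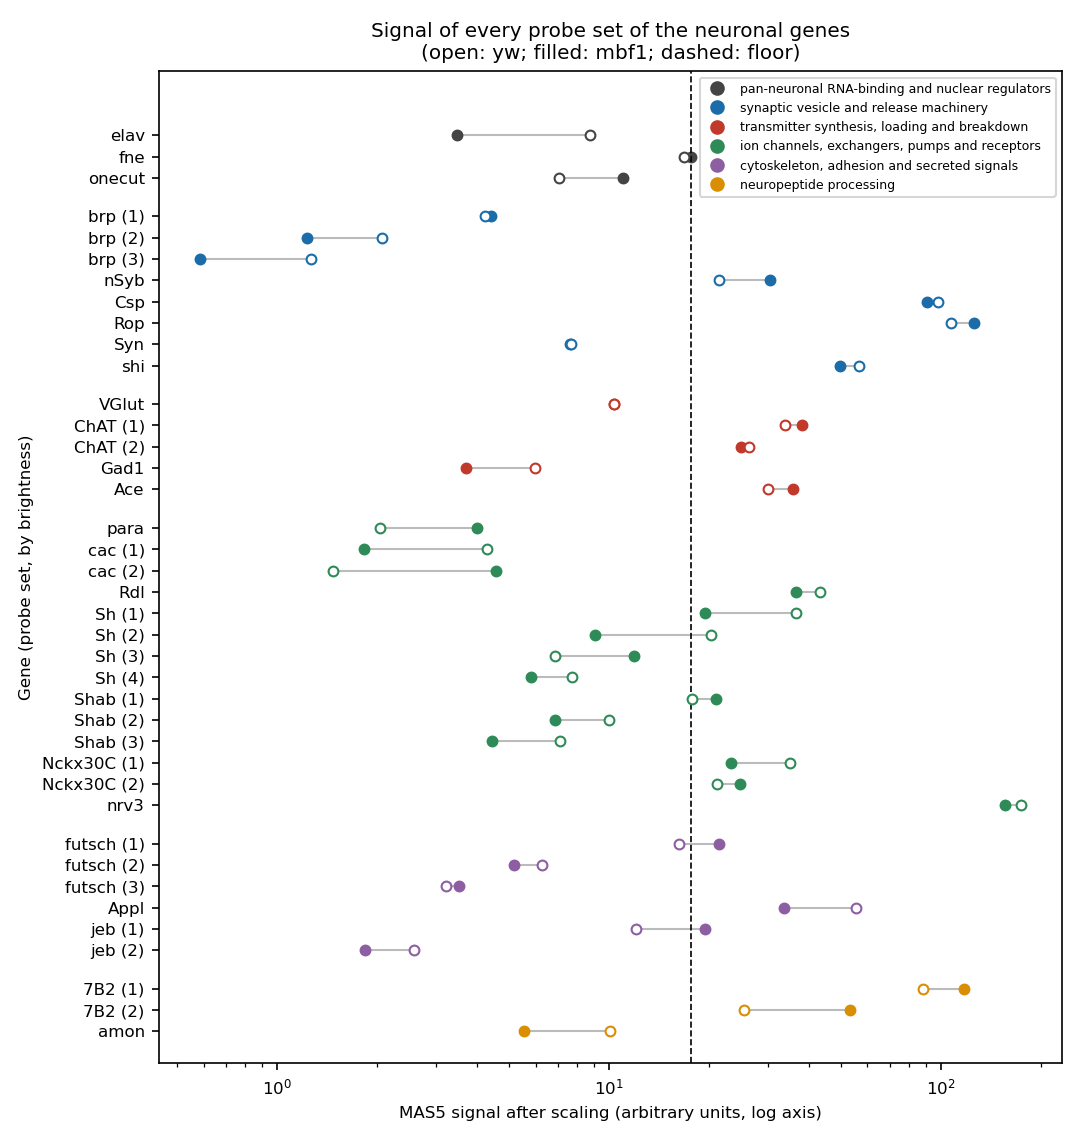
Scaled MAS5 signal (arbitrary units, log axis) of all 39 probe sets of the 25 neuronal genes, with an open point for the yw array, a filled point for the mbf1 array and colour for the role of the gene. Of the 39, 19 exceed the dashed floor of 17.7 on at least 1 array, and the highest signals are those of nrv3, 174 and 155.

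Genes that define neurons as a class were under the floor. The probe set of elav, an RNA-binding protein used as the standard marker of fly neurons, had signals of 8.77 for yw and 3.48 for mbf1. Its relative fne, also an RNA-binding protein of neurons, had 16.8 and 17.7, just under the floor on both. The homeodomain factor gene onecut had 7.08 and 11.0. These 3 genes give no ratio at this floor, and the labelled stage could not be checked against a neuronal class marker by them. A signal under the floor does not show that a transcript was absent, since a probe set may also bind its target poorly.

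Genes of the vesicle and its release machinery were 6, of which 4 were measured. The vesicle SNARE gene nSyb, the neuronal synaptobrevin that drives fusion, had signals of 21.4 for yw and 30.4 for mbf1. This was 1.42-fold higher on mbf1, a log2 ratio of 0.51, and both signals were close to the floor. Rop, the Sec1/Munc18 protein that binds syntaxin, had 107.1 and 125.6, or 1.17-fold higher. These were the 2 positive ratios among the 4 measured genes, the other 2 being negative, and neither was far from the bulk.

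Csp, the cysteine string protein that acts as a chaperone on vesicles, had signals of 97.6 and 90.7, 1.08-fold lower on mbf1. The dynamin gene shi, which works in endocytosis in many cell types besides neurons, had 56.6 and 49.7, 1.14-fold lower. On the deposited values and with scaling on hybridization controls the signs of Csp and shi turned positive, while relative to the median of all genes both stayed negative under all 5 scalings. The remaining genes of this group were dim. The active zone scaffold gene brp had 3 probe sets, with signals from 0.587 to 4.402 over both arrays, and Syn, synapsin of the vesicle surface, had 7.67 and 7.65.

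Of 4 genes of transmitter chemistry, the cholinergic pair was measured. ChAT, choline acetyltransferase, which makes acetylcholine, had signals of 33.95 for yw and 38.1 for mbf1. Its ratio was 0.17, but its second probe set, at 26.3 and 25.0, gave -0.08, and the brighter of these probe sets carries the platform's suffix for shared sequence. Ace, acetylcholinesterase, which breaks the transmitter down, had 30.2 and 35.8, a ratio of 0.24. Synthesis and breakdown enzymes thus both lay within 1.2-fold of equality.

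Markers of the other fast transmitters were under the floor on both arrays. VGlut, the vesicular glutamate transporter, had 10.3 on each array. Gad1, glutamic acid decarboxylase, which makes GABA, had 5.96 and 3.71. No statement on glutamatergic or GABAergic neurons can be made from these probe sets.

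Channels, pumps and receptors held the lowest ratio of the 15 genes. Ratios were negative for 4 of 5 measured members and for 3854 of all 7688 measured genes, and 5 genes are too few to set the group apart. Sh, the Shaker voltage-gated potassium channel, had signals of 36.5 for yw and 19.4 for mbf1, 1.88-fold lower, a log2 ratio of -0.91. It is read by 4 probe sets. The second, at 20.3 and 9.07, was at least 1.15-fold lower, a bound set by the floor, and the dimmest pair was under the floor on both arrays, at 6.88 and 11.9 and at 7.73 and 5.83.

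Nckx30C, a potassium-dependent exchanger that moves calcium out of the cell against sodium, had a log2 ratio of -0.59 from signals of 35.1 and 23.3. Its other probe set, at 21.2 and 24.7, gave 0.22, so the probe sets of this gene disagreed in sign. Pairs of probe sets for 1 gene, available for 260 genes of the whole table where each exceeded the floor for yw and for mbf1, put the SD of 1 log2 ratio at 0.38. That value holds no error between arrays or between samples.

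The brightest neuronal gene, nrv3, a beta subunit of the sodium pump found in the nervous system, had signals of 174.1 and 155.3, a ratio of -0.16. Rdl, the GABA-gated chloride channel, had 43.2 and 36.5, a ratio of -0.25. Shab, a delayed rectifier potassium channel, had 17.8 and 21.0, a ratio of 0.23 at the edge of the floor, and its other probe sets were under it. The signs of nrv3 and Rdl turned positive on the deposited values, that of nrv3 also with scaling on hybridization controls, while relative to all genes both stayed negative under all 5 scalings.

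Channels of the action potential and of release were too dim to compare. para, the voltage-gated sodium channel, had 2.04 for yw and 4.01 for mbf1. cac, the calcium channel of the active zone, had signals between 1.47 and 4.56 on its pair of probe sets.

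Appl, the fly relative of the amyloid precursor protein, had the second lowest ratio of the 15 genes. Its signals were 55.4 for yw and 33.7 for mbf1, 1.64-fold lower, a log2 ratio of -0.71, read by 1 probe set. futsch, a microtubule-associated protein of axons, had 16.3 and 21.4 and was at least 1.21-fold higher. jeb, the secreted ligand of the Alk receptor, had 12.1 and 19.4 and was at least 1.10-fold higher. Both of these had yw signals under the floor, so their ratios are bounds, had to be positive to be counted, and rest on signals just above the floor.

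Of the pair that processes neuropeptides, the chaperone was measured and its enzyme was not. 7B2, which helps the proprotein convertase amon to mature, had signals of 88.2 for yw and 117.6 for mbf1, 1.33-fold higher, a ratio of 0.41. Its second probe set, at 25.4 and 53.1, was 2.09-fold higher, a ratio of 1.06. Both probe sets of 7B2 were higher in mbf1, and they differed from each other by more in size than the brighter of them differed from equality. amon itself had 10.03 and 5.55, under the floor on both.

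Counted by probe set, 7B2 gave the 1 probe set at least 2-fold higher among 19 measured of 39, and 0 were at least 2-fold lower. Over all 8127 measured probe sets with 1 gene, 1.49% were at least 2-fold higher and 1.67% at least 2-fold lower.

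Each ratio was set beside those of the 500 measured genes of nearest signal, as a description of how far ratios spread at that brightness on these arrays. Of the 15 neuronal genes, 14 lay within the middle 90% of those ratios. Sh, at -0.91, lay below their 5th percentile of -0.83, as 5.14% of all measured genes lay below theirs, and 0 neuronal genes lay above the 95th percentile, as 4.97% of all did. Appl, at -0.71, lay inside its limit of -0.75. At least 1.5-fold lower in mbf1 were Sh, Appl and Nckx30C, 3 of 15 or 20%, against 7.71% of all measured genes, and 0 were at least 1.5-fold higher, against 7.45%. Nckx30C had the opposite sign on its other probe set, and 7.71% of 15 genes corresponds to about 1 gene.

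**Figure D2:**
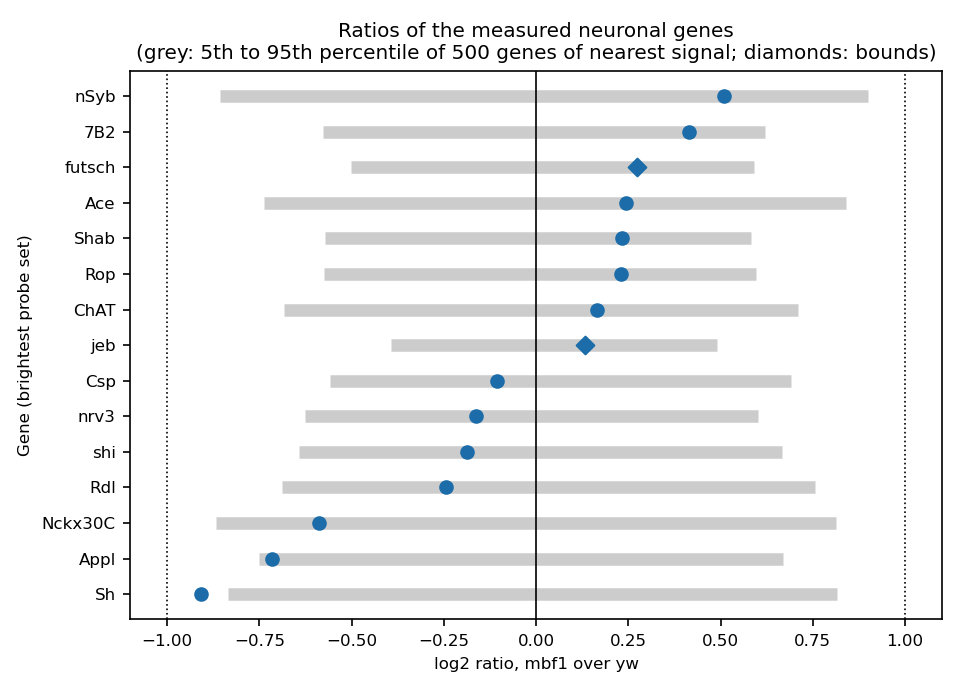
Log2 ratio of mbf1 over yw for the 15 measured neuronal genes, each from its brightest probe set, with a grey bar from the 5th to the 95th percentile of the 500 genes of nearest signal and diamonds for ratios that are bounds. All points lie between the dotted 2-fold lines, and only that of Sh, at -0.91, lies outside its grey bar.

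Relative to the median of all measured genes, 14 of the 15 genes kept their sign under the 5 scalings, and jeb was at 0.13 after centring and at -0.09 on the deposited values. Sh ranged from -0.91 to -0.86, Appl from -0.72 to -0.67 and nSyb from 0.51 to 0.56. The genes near the floor moved more, with Shab between 0.02 and 0.25 and futsch between 0.05 and 0.28, both lowest on the deposited values. On the deposited values, with no scaling, nSyb was 2.08-fold higher in mbf1, but there the median log2 ratio of all measured genes was 0.50, and 10.1% of all had ratios of 1 or more.

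**Figure D3:**
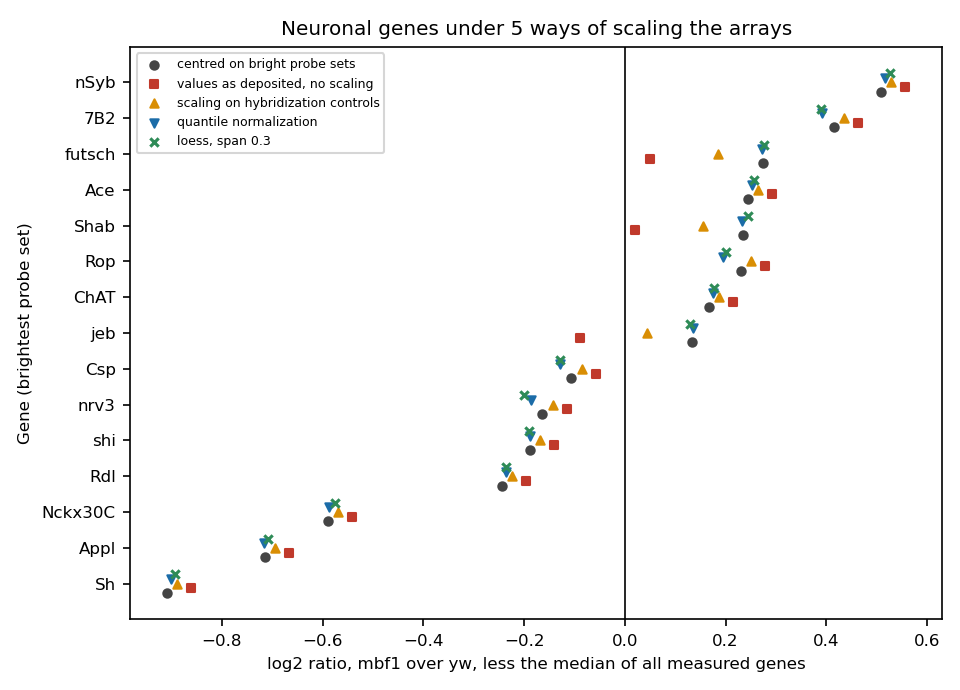
Log2 ratio of mbf1 over yw less the median of all measured genes (x axis) for the 15 measured neuronal genes, with a marker for each of 5 ways of scaling the arrays. The markers of Shab run from 0.02 to 0.25 and those of futsch from 0.05 to 0.28, and only jeb has markers on both sides of 0.

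A wider set of neuronal genes was described in 6 companion lists, which together held 173 genes with a probe set beyond the neuronal genes above. Of these 102 were measured, with a median log2 ratio of -0.04, 1 at least 2-fold higher and 2 at least 2-fold lower, beside 1.51% and 1.63% of all measured genes. With scaling on hybridization controls these counts were 2 and 1 of 100 measured, beside 3.05% and 1.01% of all measured genes. On the deposited values they were 9 and 0 of 102, beside 10.1% and 0.43%, and the median of all genes there was 0.50. Relative to all genes the median lay between -0.05 and -0.02 under the 5 scalings. In all, 71 of the 173 genes were under the floor on both arrays.

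In the list of the vesicle cycle and active zone, 20 of 32 genes were measured, with a median of 0.06. EndoA, endophilin, which acts with dynamin in vesicle retrieval, had signals of 23.3 for yw and 54.1 for mbf1, 2.32-fold higher. Over the 5 scalings its log2 ratio ran from 1.22 after centring to 1.77 on the deposited values, and its yw signal was close to the floor. Rab3-GEF, the exchange factor of the vesicle GTPase Rab3, had 40.6 and 18.2, 2.23-fold lower, a log2 ratio of -1.16 that was -0.61 on the deposited values. Rbp, a binding protein of the active zone scaffold, had 38.9 and 20.8, 1.87-fold lower on the brightest of 3 probe sets, the others being under the floor.

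For transmitter synthesis, transport and clearance, 17 of 21 genes were measured, with a median of 0.02 and none at least 2-fold apart in either direction. VGAT, the vesicular GABA transporter, had signals of 50.1 and 26.4, a ratio of -0.92. Pu, GTP cyclohydrolase, which starts the synthesis of a cofactor for dopamine and serotonin production, had 81.2 and 43.4, a ratio of -0.90. The gene t, tan, a hydrolase that frees dopamine and histamine from their conjugates, had 10.1 and 27.3 and was at least 1.54-fold higher.

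Transmitter receptors were the dimmest of these lists, with 11 of 35 genes measured, and all 11 ratios were negative with a median of -0.22. For yw all 11 exceeded the floor, and for mbf1 3 did. The 8 genes measured only through the yw array had to have negative ratios, so the count of 11 is partly fixed by the floor. The 3 genes that exceeded it for both genotypes were nAChRbeta3, a nicotinic acetylcholine receptor subunit, at -0.48 from 71.9 and 51.5, the serotonin receptor gene 5-HT2A at -0.33 from 28.9 and 23.1, and the octopamine receptor gene Octbeta3R at -0.02 from 71.8 and 70.9. Of the bounds, nAChRalpha2, another nicotinic subunit, was at least 1.77-fold lower, from 31.4 to 13.8, and the dopamine receptor gene Dop2R at least 1.32-fold lower, from 23.3 to 15.9. The genes 5-HT2A and Octbeta3R, and below repo and Arr2, were chosen after their values were seen. On the deposited values 6 of 8 measured receptors had positive ratios, and their median was 0.38 below that of all genes, beside 0.22 below after centring.

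Voltage-gated and neuronal channels had a median of -0.03 over 18 measured of 28 genes, with 0 at least 2-fold apart in either direction. The inward rectifier potassium channel gene Irk3 had signals of 47.0 and 75.3, a ratio of 0.68. Ca-beta, a calcium channel subunit, was at -0.39 and tipE, an auxiliary protein of the sodium channel para, at 0.36. The lowest ratio in this list was the -0.39 of Ca-beta, beside -0.91 for Sh, and no test of the difference was possible.

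Neuropeptide and hormone genes had a median of -0.11 over 21 measured of 30 genes, with 0 at least 2-fold apart in either direction. Nplp3 and Nplp4, both named as neuropeptide-like precursors, were the bright members with the lowest ratios, at -0.80 from 2768 and 1591 and at -0.63 from 971.5 and 627.8. Akh, adipokinetic hormone, which mobilises energy stores, had signals of 128.5 and 204.0, 1.59-fold higher.

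Genes of axon guidance and neural adhesion had a median of -0.13 over 15 measured of 27 genes, but 0.01 over the 10 that exceeded the floor for both genotypes, and the median relative to all genes was 0.06 on the deposited values. Through yw alone 4 genes were measured, among them Ten-m and Dscam1, and these had to have negative ratios. Ten-m, a teneurin that matches synaptic partners, was at least 2.497-fold lower on its brighter probe set, with 44.2 and 14.6. Its other probe set, at 27.1 and 28.6, gave 0.08, so the lower value rests on 1 of its probe sets. On the deposited values that other probe set was the brighter, and the ratio of Ten-m was 0.63. Dscam1, a cell recognition molecule of axons, had 30.8 and 15.8 and was at least 1.74-fold lower, and Nrt, neurotactin, was at -0.53.

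**Figure D4:**
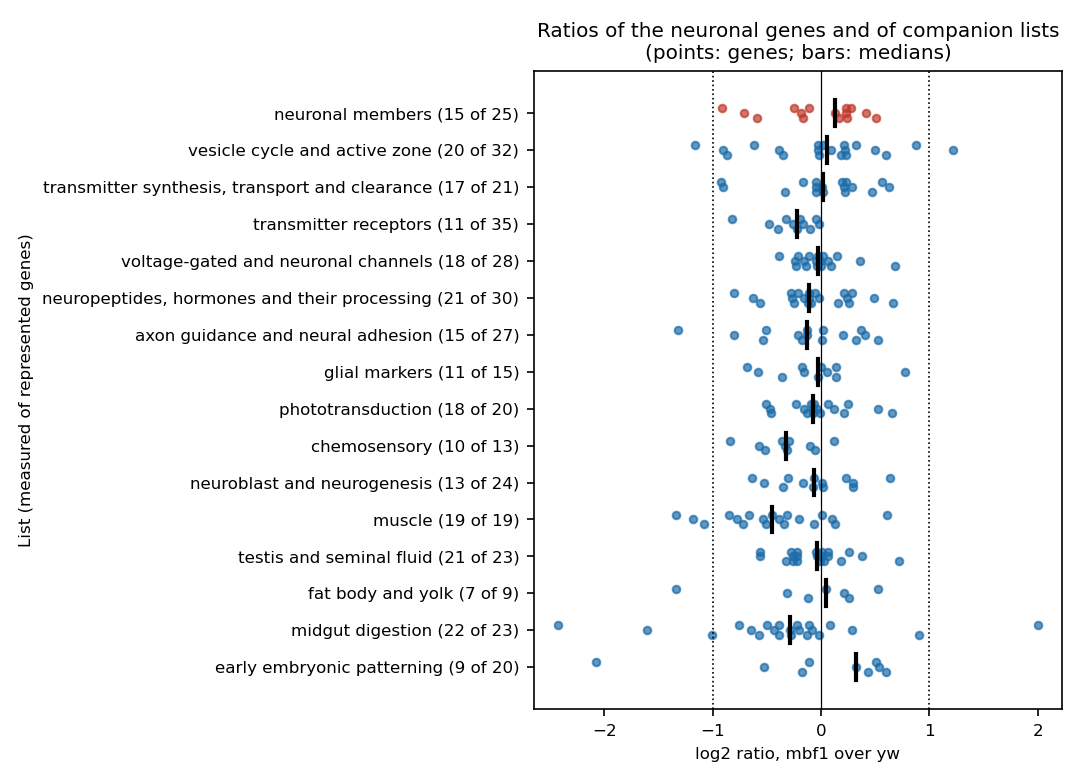
Log2 ratio of mbf1 over yw for the measured genes of the neuronal list (red) and of 15 companion lists (blue), with a black bar at each list's median and the number measured of those with a probe set beside its name. The neuronal list lies between the dotted 2-fold lines with a median of 0.13, a sign that turned with the floor and, relative to all genes, with the scaling, and the muscle list has the lowest median, -0.46, which was 0.09 on the deposited values.

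Markers of cells next to neurons and of other tissues were measured in the same way. Glial genes had a median of -0.02 over 11 measured of 15, and repo, the defining glial transcription factor, was under the floor at 15.3 and 13.7. Their summed signal was 1478 for yw and 1089 for mbf1, carried mostly by the sugar transporter gene Tret1-1 at 1053 and 658, whose other probe set gave a ratio of 0.05 beside -0.68. ana, a secreted glial protein, was at 0.78, and loco, a regulator of G protein signalling, at -0.58. Neuroblast and neurogenesis genes had a median of -0.06 over 13 of 24, with summed signals of 459.9 and 402.0. Among them nub was at 0.64, svp at -0.63 and hb at -0.53, all transcription factors of neural lineages. The other measured probe set of svp gave -0.09.

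Lists of phototransduction and chemosensory genes were measured as well. Of 20 phototransduction genes 18 were measured, with a median of -0.07 and summed signals of 4151 and 3973. Arr2, an arrestin that ends the light response of photoreceptors, had 1297 and 1186. The ratio of trpl, a light-gated channel, was 0.66, that of santa-maria, a scavenger receptor for carotenoid uptake, was 0.52, and that of retinin, a corneal protein, was -0.51. Of 13 chemosensory genes 10 were measured, with a median of -0.32, summed signals of 4355 and 3706, and odorant-binding genes Obp99b at -0.84 and Obp56d at -0.57. Obp69a was at least 1.43-fold lower. The summed signal of the 25 neuronal genes was 903 for yw and 887 for mbf1.

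Genes of other tissues were also measured, and sums over lists of different genes are not compared with each other. Testis and seminal fluid genes, which serve adult males, had 21 of 23 measured and summed signals of 23154 and 20547, a median of -0.04, with Mst77F at 0.72, Acp62F at -0.57 and aly at least 1.478-fold lower. Early patterning genes of the embryo had 9 of 20 measured and summed signals of 416 and 393, a median of 0.32 that was -0.11 over the 7 that exceeded the floor for both genotypes, with tup at -2.08 on 1 of its probe sets, cad at 0.60 and kni at least 1.45-fold higher. Muscle genes, at 19508 and 13260, had a median of -0.46 with fln, Mlp60A and TpnC4 at least 2-fold lower, 2.53-fold, 2.27-fold and 2.12-fold. Midgut genes, at 32463 and 27240, had a median of -0.28, with LysP at least 5.38-fold lower, LysX 4.01-fold higher and Mal-A3 3.05-fold lower. Fat body and yolk genes, at 2140 and 1992, had a median of 0.05, with Lsp2 2.53-fold lower, apolpp at 0.52 and tobi at -0.31. No signal in these lists was listed at 0. Genes known from adult males and adult eyes were thus bright on arrays labelled as embryos. Testis and seminal fluid genes had a median signal of 480.9 for yw and 573.6 for mbf1, and phototransduction genes 55.9 and 44.9. The median over all genes was 30.4 and 30.3. Of the early patterning genes, 11 of 20 were under the floor for both genotypes, against 29.1% of all genes. The genes elav and repo were under it too. Measured were 15 of 25 neuronal genes, or 60%, and 11 of 15 glial genes, or 73.3%, against 70.9% of all genes. The labelled stage of the RNA behind the neuronal values could therefore not be settled from these probe sets. Relative to all genes the medians were negative under all 5 scalings, from -0.46 to -0.41 for muscle and from -0.28 to -0.05 for midgut, though on the deposited values they were 0.09 and 0.27. Muscle and midgut signals were lower in mbf1, and their part in the neuronal ratios was not tested. The 25 neuronal genes differed little in summed signal after centring, a step that sets the level of the mbf1 array. Over all genes the sums after this step were 1.0586e+06 for yw and 997994 for mbf1. The 173 genes of the 6 companion neuronal lists had 12572 for yw and 10794 for mbf1, with Nplp3 at 2768 and 1591.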

How the data were processed

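Each sample was 1 Affymetrix DrosGenome1 array. The deposited intensities are linear MAS5 signals, 1 per probe set, per the submitters' processing notes; version, target level and genome build: not given in the sources used here. Of 14010 probe sets, 44 were controls; the platform annotation gave 1 gene symbol for 12443, several for 327 and none for 1240. Symbols were matched by gene identifier to a RefSeq gene table for 12393 probe sets, which changed 0 of them. The table held 0 columns beyond the 2 arrays.

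The median log2 ratio of probe sets that exceeded their own array's median signal on both arrays was subtracted, bringing the mbf1 array to the level of the yw array. A floor was set at the 40th percentile, and a gene was represented by its brightest probe set. A fold that involves a value raised to the floor is a lower bound, given as at least N-fold. Genes at least 2-fold apart were counted. The computation used Python 3.11.15, numpy 2.4.6, pandas 2.3.3 and statsmodels 0.14.6. It was tested on simulated data with changes planted only in genes well above the floor, so recovery near the floor was not tested. With 1 array per group no p-value was computed, and the number of arrays limits the precision.

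The members and the companion lists were chosen with earlier results of these data known. Named genes were all members, up to 3 genes of each companion list with the largest ratios in size, and mbf1; the text says which others were picked later. Alternatives were other scalings, floors, a pseudocount, other uses of the probe sets and other thresholds.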

Additional observations from a re-analysis of the deposited data

How the results depend on the processing

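The median log2 ratio of the neuronal genes, 0.13, was 0.43 without scaling, where all genes had a median of 0.50. It was -0.11 when the floor was the 60th percentile, and again over the genes whose signals exceeded the floor for yw and mbf1 alike. It was -0.075 with only probe sets free of the suffix for shared sequence, which replaced the brighter probe set of ChAT. In the other 7 of 11 alternatives it lay between 0.05 and 0.17. The count at least 2-fold higher was 0 except for 1 without scaling, nSyb, and 1 with every probe set on its own, 7B2. The count at least 2-fold lower was 0 except for 3 with a threshold of 1.5-fold, by construction. With a floor at the 60th percentile 9 neuronal genes were measured in place of 15. Of 142 single gene values under alternatives, 125 stayed within the robust SD of the 500 genes of nearest signal, and 10 of 15 genes kept their sign in every alternative that measured them. The exceptions were Csp, shi, nrv3, Rdl and ChAT. Sh was at -0.03 with a floor at the 60th percentile, a bound set by that floor. The share under the floor was higher for neuronal genes than for all genes at each floor, 24% against 14.5% at the 25th percentile and 64% against 51.1% at the 60th. No paired analysis was possible because each group had 1 array. For the 10 genes under the main floor no ratio was taken. That floor is a percentile of all signals and not a measure of background. Lowering it to the 25th percentile raised the number of measured neuronal genes to 19.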

Other observations

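Protein-coding genes next to the 25 neuronal genes in the RefSeq gene table of the Release 6 assembly were 48 in number, and 33 of them were measured. Their median log2 ratio was -0.01, and 0 were at least 2-fold apart in either direction. Of all measured genes 1.51% were at least 2-fold higher and 1.63% at least 2-fold lower, so a count of 0 does not set the neighbours apart. These neighbours were chosen after the values of the neuronal genes were seen. Timp, an inhibitor of matrix metalloproteases that neighbours Syn, is named because its ratio was the largest in size among them. It had signals of 106.4 for yw and 188.2 for mbf1, a ratio of 0.82, while Syn was under the floor.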
